A study of Mus musculus with 2 samples.

Results

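*Cck* encodes cholecystokinin, a peptide hormone, and is followed here through every cell class of a scRNAseq comparison of mouse back skin and preputial gland (PG). It is 1 of 32285 genes listed in both matrices (ENSMUSG00000032532), found by its symbol. It was chosen because earlier results of these data had shown it to be higher in PG, so its levels are given as a description with no test. Skin and PG came from the same 3 male wild type C57BL/6 mice aged 52 weeks, and each tissue was pooled over the mice into 1 library. With 1 library each, tissue and library cannot be told apart and the spread between mice was not measured. The barcode lists of the libraries differ in length, as those of different kit versions do, although the labels name 1 kit for both, so a difference in kit cannot be told apart from tissue in any value of PG over skin. The labels name no transgene and no treatment in either group. Intervals below are exact 95% intervals of the counts and say nothing of the spread between mice or libraries. Those of levels and ratios take each counted molecule as independent, so they also leave out the spread between cells.

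After removal of barcodes with fewer than 500 genes, fewer than 1000 unique molecular identifiers (UMIs, each one captured RNA molecule) or more than 10% mitochondrial UMIs, 8899 skin cells with a median of 2386 UMIs and 4699 PG cells with a median of 2729 UMIs were kept. The 2 libraries shared 0 of these cell barcodes, but their barcode lists had only 77142 entries in common, so nothing is read from this. *Cck* UMIs were found in 2736 PG cells, which is 58.2%, and in 53 skin cells, which is 0.596%. The PG cells held 11264 *Cck* UMIs and the skin cells 78. By the markers given below, 957 PG cells and 53 skin cells were gated as sebocytes (SEB). Of these, 800 PG cells and 16 skin cells also lay in clusters with an SEB marker profile, so the skin SEB gate holds mostly cells of other clusters.

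Cholecystokinin is best known from the I cells of the small intestine, which release it after a fatty meal, and from neurons of the brain. Its precursor is cut by prohormone convertases, trimmed by carboxypeptidase E, amidated by *Pam* and sulfated by the tyrosylprotein sulfotransferases before it binds the receptors *Cckar* and *Cckbr*. The PG is a paired gland of rodents related to the sebaceous glands of skin, and its SEB, like those of skin, fill with lipid and burst. *Dbi* encodes acyl-CoA binding protein, which carries fatty acyl chains in the cell. A fragment of the same protein is known from the gut as a peptide that releases cholecystokinin.

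*Cck* lies on chromosome 9 of GRCm38 (mm10), from 121489824 to 121495694 on the minus strand, and its principal transcript has 3 exons. No other annotated gene overlaps this span, and the reads themselves were not examined. The 250 bases before its RefSeq start, at chr9:121495695-121495944 on the minus strand of GRCm38.p6, are shown because they carry 2 motifs for which the *Cck* promoter is known. The capitals mark an E-box (CACGTG), beginning 66 bases before the start, and a variant of the cAMP response element (TGCGTCA), beginning 49 bases before it.

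*Cck* promoter: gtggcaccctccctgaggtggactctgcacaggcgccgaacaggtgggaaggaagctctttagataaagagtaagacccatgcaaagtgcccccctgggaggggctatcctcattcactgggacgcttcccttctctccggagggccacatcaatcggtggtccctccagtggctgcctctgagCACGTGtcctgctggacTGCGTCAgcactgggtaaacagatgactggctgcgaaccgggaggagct

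On either strand, CACGTG was found in 6.02% and TGCGTCA in 1.75% of 32851 promoter windows of this length. Of the other motifs searched on both strands, TGACGTCA and TGACTCA had no match in the *Cck* window and AGATAA had 1, beginning 189 bases before the start, and they were found in 1.55%, 4.46% and 9.99% of windows. These letters describe the window only, because the libraries measured RNA and no binding.

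Cells were assigned to a class by the markers that held the largest share of their UMIs. *Cck* was highest in basal cells of the PG, defined by *Krt5*, *Krt14*, *Krt15*, *Trp63* and integrins. The 2009 basal-gated cells held 7044 *Cck* UMIs, at 1207 CPM (UMIs of the gene per 1000000 UMIs of the class; interval 1179 to 1236). The 957 SEB-gated cells, defined by lipid genes such as *Scd1*, *Mgst1* and *Soat1*, held 3367 UMIs at 705 CPM (681 to 729). The 700 suprabasal-gated cells, defined by differentiation keratins and *Krtdap*, held 489 UMIs at 176 CPM (161 to 193). Basal-gated cells were thus 1.71-fold above SEB-gated cells (1.64 to 1.78) and 6.85-fold above suprabasal-gated cells (6.25 to 7.52), and none of these intervals overlapped. Basal and suprabasal cells in 1 group were at 875 CPM, and SEB-gated cells differed from them by a log2 ratio of -0.31 (-0.37 to -0.25). Without mitochondrial, ribosomal protein and *Dbi* UMIs in the scaling these levels were 1350 and 1109 CPM.

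The share of cells with a *Cck* UMI was 81.3% among basal-gated, 76.3% among SEB-gated and 35.0% among suprabasal-gated cells of the PG. Median depth was 2690, 4551 and 3623 UMIs in these classes. After every cell was thinned to 1000 UMIs, the shares were 60.1%, 47.1% and 15%, so the order was unchanged and the gap between basal and SEB-gated cells was wider. The transcript was abundant in single cells. At least 5 *Cck* UMIs were found in 30.3% of basal-gated and 32.1% of SEB-gated cells but in 2% of suprabasal-gated cells, and the highest cell, SEB-gated, held 25.

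Cells of other lineages served as the background. Among 606 fibroblast-gated PG cells, 4.95% held a *Cck* UMI (3.36 to 6.99) at a median depth of 1333 UMIs, and their level was 73.5 CPM (57 to 93.4). Among 213 immune-gated cells it was 3.76% and 24.2 CPM (12.1 to 43.3). In 35 endothelial-gated cells there were 0 *Cck* UMIs, which allows up to 52.7 CPM. Barcodes with 1 to 100 UMIs, taken as free RNA of the suspension, held *Cck* at 287 CPM in PG and 1.40 CPM in skin. Basal-, SEB- and suprabasal-gated PG cells stood at 420%, 245% and 61.4% of the free RNA level for *Cck*. The level of suprabasal-gated cells was thus below that of free RNA, and the part of free RNA in it was not tested. Fibroblast-gated cells stood at 25.6% of the free RNA level for *Cck*. For 10 other genes of PG epithelium this value ran from 6.29% (*Scd1*) to 49.3% (*Aldh3a1*), and 3 of them were above *Cck*. Immune-gated cells stood at 8.43% for *Cck* and between 2.12% (*Krtdap*) and 39.8% (*Lmo1*) for the same 10 genes, 6 of them above *Cck*. The fibroblast-gated cells with *Cck* held a median of 3348 CPM of epithelial markers and 2344 UMIs, against 1199 CPM and 1322 UMIs in those without it. The part of free RNA and of doublets in these UMIs was not tested.

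**Figure D1:**
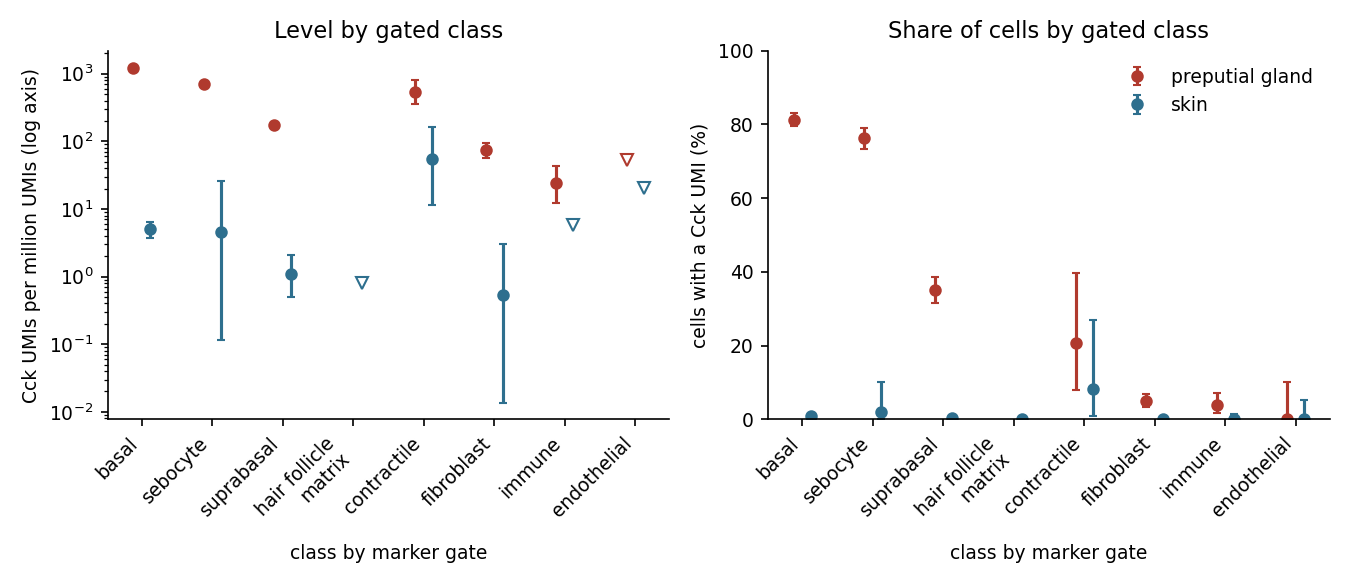
*Cck* by gated class in the PG library (red) and the skin library (blue): left, UMIs per 1000000 UMIs of the class on a log axis with exact Poisson 95% intervals, where open triangles give the limit that 0 UMIs allow; right, percent of cells with a *Cck* UMI with exact binomial 95% intervals. PG basal-gated cells reach 1207 CPM and 81.3% of cells, whereas skin basal-gated cells reach 4.98 CPM.

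Within PG epithelium, made up of 3666 basal-, SEB- and suprabasal-gated cells, *Cck* was highest at intermediate keratin and intermediate *Dbi*. When these cells were ranked by the share of their UMIs in *Krt5* and *Krt14*, *Cck* was 643, 974, 1006, 906 and 578 CPM from the lowest to the highest quintile. Both are known as keratins of the basal layer, but in PG their sum was highest in suprabasal-gated cells, at 4276 CPM. It was 3434 CPM in basal-gated and 1158 CPM in SEB-gated cells, so the highest quintile is not simply the most basal. The intervals of quintile 2 (938 to 1011) and quintile 3 (966 to 1046) overlapped. Before scaling, quintile 2 held 2799 *Cck* UMIs in 733 cells and quintile 3 held 2443 in 734, at median depths of 3376 and 3010 UMIs. The middle quintile was 1.56-fold above the lowest (1.48 to 1.66) and 1.74-fold above the highest (1.63 to 1.86). The 2 ends differed little, by a log2 ratio of -0.15 for highest over lowest (-0.25 to -0.05). After thinning to 1000 UMIs before ranking, the middle quintile was still the highest but the curve was flatter, at 825 CPM in the lowest, 1002 in the middle and 788 in the highest quintile.

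When the same cells were ranked by *Dbi*, *Cck* was 725, 970, 1059, 964 and 513 CPM from the lowest to the highest quintile. The middle quintile was 1.46-fold above the lowest (1.37 to 1.56) and 2.07-fold above the highest (1.95 to 2.19). The highest quintile was below the lowest by a log2 ratio of -0.50 (-0.60 to -0.40). Thinned to equal depth, 43.0%, 52.4%, 57.5%, 53.2% and 34.4% of cells held a *Cck* UMI, which is the same rise and fall. Median depth grew over these quintiles from 2509 to 5115 UMIs. Before scaling, quintile 4 held 2764 *Cck* UMIs in 733 cells and quintile 3 held 2578 in 734.

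The classes ran in opposite directions beneath these curves. Among basal-gated cells, *Cck* rose with *Dbi*, at 775, 1049, 1222, 1415 and 1478 CPM, a log2 ratio of 0.93 for highest over lowest quintile (0.81 to 1.05). The intervals of quintiles 4 (1350 to 1482) and 5 (1412 to 1546) overlapped. After thinning, 69.9% and 67.4% of their cells held a *Cck* UMI. Among SEB-gated cells *Cck* was 1131, 1135, 898, 609 and 164 CPM, so that the highest quintile was below the lowest by a log2 ratio of -2.79 (-3.02 to -2.57), or -2.19 after thinning. Suprabasal-gated cells stayed between 118 and 219 CPM. *Dbi* was not among the markers of any class. Its level in free RNA of PG was 9600 CPM, above the 9144 CPM of the highest *Dbi* quintile of basal-gated cells. The part of free RNA in this ranking was not tested.

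The keratins gave the mirror image. Among basal-gated cells the level went from 1353 CPM in the lowest to 936 CPM in the highest *Krt5* and *Krt14* quintile, a log2 ratio of -0.53 (-0.65 to -0.42). Among SEB-gated cells it went from 449 to 1049 CPM, a log2 ratio of 1.22 (1.05 to 1.40). *Krt5* and *Krt14* are themselves markers of the basal class, so this ranking is not independent of the gate.

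**Figure D2:**
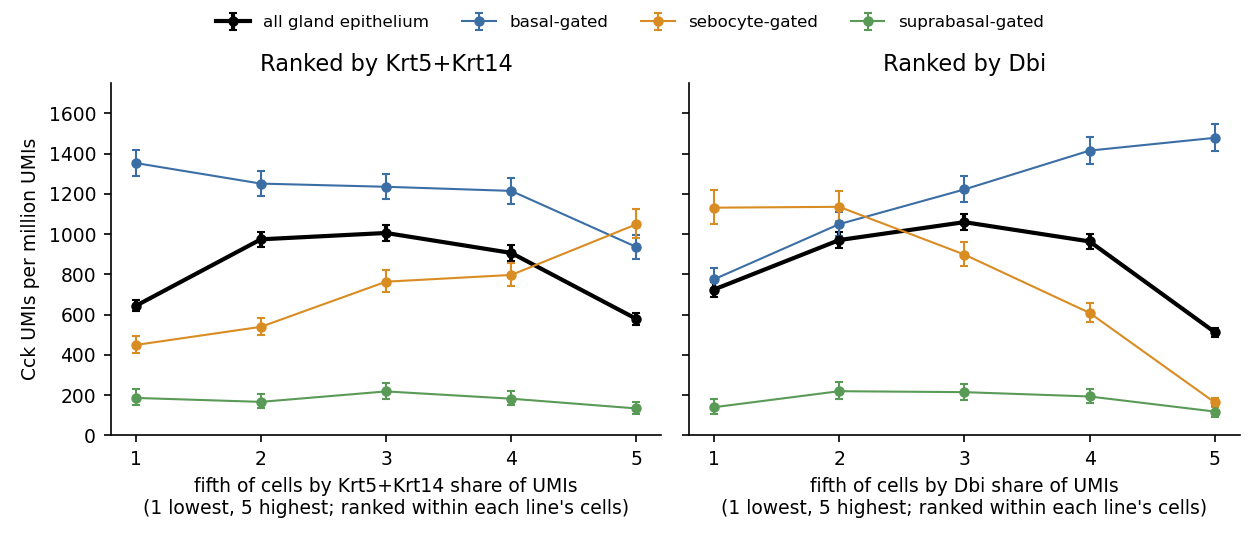
*Cck* UMIs per 1000000 UMIs in PG cells ranked into quintiles (1 lowest, 5 highest) by the share of UMIs in *Krt5* and *Krt14* (left) or in *Dbi* (right), for all PG epithelium (black) and separately within each gated class (colours), with exact Poisson 95% intervals. Over all epithelium both curves peak in quintile 3, where the keratin interval overlaps that of quintile 2. Along *Dbi* the basal-gated line climbs from 775 to 1478 and the SEB-gated line drops from 1131 to 164.

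Both rankings together placed the highest level, 1290 CPM (1210 to 1374; 187 cells), in keratin quintile 2 and *Dbi* quintile 4. SEB-gated cells made up 48.1% and basal-gated cells 44.9% of these cells. The lowest level, 171 CPM (129 to 223; 74 cells), was found where both were highest, and 79.7% of those cells were suprabasal-gated. Cells with the highest *Dbi* and lowest keratin, 96.6% of them SEB-gated, stood at 470 CPM (442 to 499; 388 cells). Cells with the lowest *Dbi* and highest keratin, 85.4% of them basal-gated, stood at 754 CPM (678 to 835; 198 cells).

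**Figure D3:**
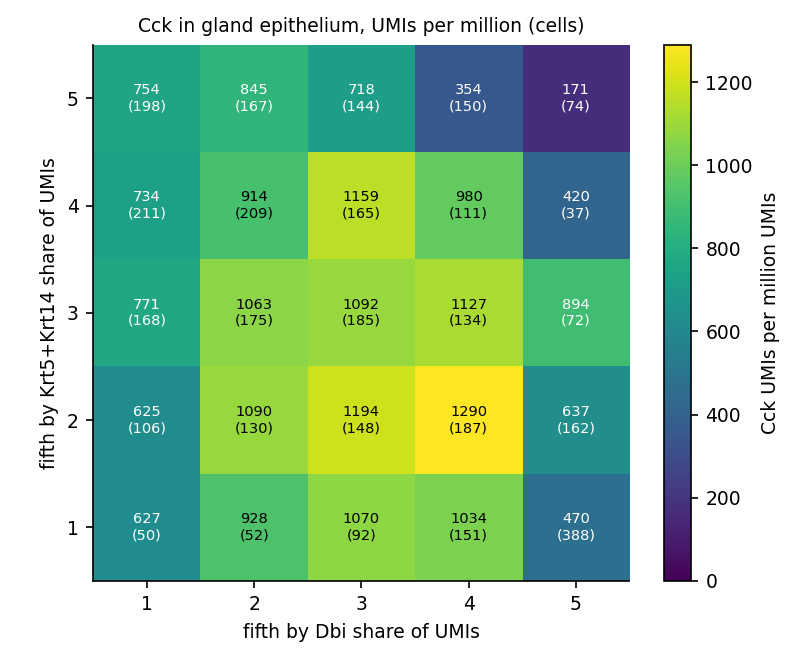
*Cck* UMIs per 1000000 UMIs (colour and upper number) in PG epithelial cells split by quintile of *Dbi* (horizontal) and of *Krt5* and *Krt14* (vertical), with the number of cells in parentheses. The level is highest at 1290 in keratin quintile 2 and *Dbi* quintile 4 and lowest at 171 where both are highest.

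*Cck* also differed with the level of SEB genes within SEB-gated and within basal-gated cells. These rankings are by gene level, and no course of differentiation was inferred. SEB-gated cells were divided into tertiles by the late SEB genes *Awat1*, *Awat2*, *Elovl3*, *Soat1*, *Plin5*, *Cidea*, *Dgat2l6* and *Far2*, which act in wax and sterol ester synthesis and on lipid droplets. The tertiles rest on *Awat2*, *Cidea* and *Soat1*, with 2905, 2373 and 1087 UMIs in SEB-gated cells, since the other 5 held 28 or fewer each. *Cck* was 1207 CPM in the lowest, 771 CPM in the middle and 336 CPM in the highest tertile, a 3.59-fold difference between the ends (3.27 to 3.94). *Dbi* went the other way, at 10864, 19207 and 27198 CPM. Thinned to equal depth, 62.7%, 49.2% and 29.5% of these cells held a *Cck* UMI. Basal-gated cells divided by their SEB markers were at 791 CPM in the lowest, 1239 in the middle and 1550 CPM in the highest tertile, 1.96-fold between the ends (1.84 to 2.09). Basal-gated cells with at least 2 of the 7 cycling genes, such as *Mki67* and *Top2a*, were at 1039 CPM (984 to 1096; 334 cells) and the other basal-gated cells at 1255 CPM (1223 to 1288; 1675 cells).

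Clusters made without *Cck*, *Dbi*, *Krt5* and *Krt14* allowed a look at single populations. Of 27 PG clusters, 16 had at least 50 cells and an epithelial marker profile, and their *Cck* level ranged from 36.4 to 1695 CPM. The 3 highest were basal-like cluster 19, led by the stress and growth response genes *Pdk4*, *Ccn1*, *Nr4a1*, *Jun* and *Fos*, at 1695 CPM (1536 to 1867; 69 cells), basal-like cluster 0, led by *Nrg2*, *Ctnnal1*, *Peg3* and *Dlk2*, at 1557 CPM (1508 to 1606; 928 cells), and SEB-like cluster 1, led by *Nrg4*, *Sphk1* and *Pparg*, the master regulator of lipid storage, at 1464 CPM (1400 to 1529; 387 cells). Neighbours in this order overlapped. A *Cck* UMI was found in 97.1%, 92.2% and 92.8% of their cells.

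Next came the dividing basal-like clusters 11 and 10, at 1173 and 1170 CPM with overlapping intervals, and basal-like cluster 3, led by *Clca3a2*, *Postn* and *Krt15* with the haemoglobin gene *Hbb-bs*, at 996 CPM (927 to 1068). In the other 4 SEB-like clusters, *Cck* was lower the higher *Dbi* was, although the intervals of clusters 7 (634 to 726) and 16 (530 to 667) overlapped. Cluster 7 had 679 CPM of *Cck* with 18553 CPM of *Dbi*, cluster 16 had 595 with 21757, cluster 13 had 208 with 27982, and cluster 17, led by *Awat2* and *Pnpla5*, had 36.4 (23.1 to 54.7) with 39375. Cluster 17 was the deepest, with a median of 8384 UMIs, and 3.75% of its cells held a *Cck* UMI after thinning, against 73.4% in cluster 1. Not all basal-like clusters were high. Cluster 2, led by *Adgrb1*, *Sbpl* and *Slc7a8*, was at 425 CPM (383 to 471), and 72.2% of its cells were basal-gated. Its leading genes include the contractile marker *Tagln*, as do those of cluster 3. They include no basal marker, and neither do those of basal-like clusters 0, 10, 11, 14 and 19. The dividing cluster 14 was at 442 CPM (383 to 508). Suprabasal-like clusters 6, 20, 15 and 4 were at 355, 321, 129 and 99.8 CPM, although 57.6% of the cells of cluster 20 were basal-gated. Clusters 13, 15, 4 and 17 were below the 287 CPM of free RNA.

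**Figure D4:**
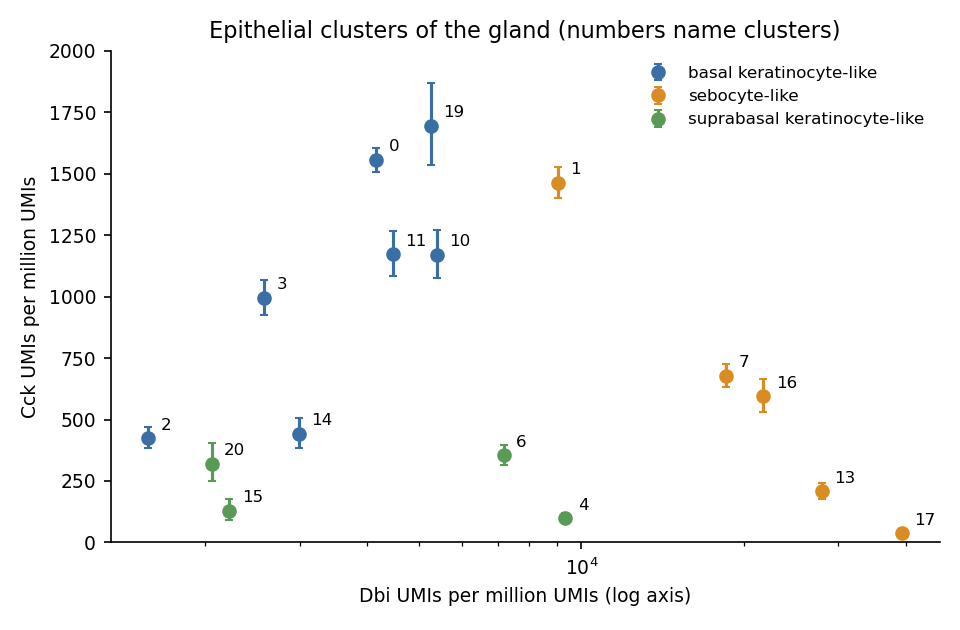
*Cck* against *Dbi*, both as UMIs per 1000000 UMIs (*Dbi* on a log axis), in the 16 PG epithelial clusters with at least 50 cells, coloured by the class of their markers, with exact Poisson 95% intervals for *Cck* and cluster numbers beside the points. The 4 basal-like clusters highest in *Dbi* lie between 1170 and 1695, SEB-like clusters fall from 1464 in cluster 1 to 36.4 in cluster 17, and suprabasal-like clusters lie at 355 or lower.

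In skin, *Cck* was rare but not scattered. Skin epithelium was made up of 7190 basal-, suprabasal-, SEB- and hair follicle matrix-gated cells. It held 68 *Cck* UMIs at 2.86 CPM (2.22 to 3.63), against 814 CPM (799 to 830) in PG epithelium. The log2 ratio was 8.15 for PG over skin (7.81 to 8.52). This ratio was 9.47 over cells with at least 1000 genes and 2000 UMIs. Of the genes with at least 10 CPM in either, 15.3% were at least 2-fold higher and 17.9% at least 2-fold lower in PG epithelium. *Cck* was chosen on this contrast, so nothing is read from its place among them. Basal-gated skin cells were at 4.98 CPM (3.78 to 6.43; 4080 cells) and suprabasal-gated cells at 1.10 CPM (0.504 to 2.09; 2172 cells). The 53 SEB-gated skin cells held 1 UMI, but 37 of them lay in clusters of hair follicle, basal or fibroblast profile. The SEB-like skin cluster, of 78 cells, held 0 *Cck* UMIs, which allows up to 7.58 CPM. The 885 hair follicle matrix cells held 0 as well, which allows a share of up to 0.339%.

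Of the 53 skin cells with a *Cck* UMI, 41 were in 1 cluster of 695 basal-like cells, which is 77.4% of them in 7.81% of the cells. The next cluster held 3. The cluster was led by *Wfdc3*, *Serpinb11*, *Krt24*, *Grem1*, an antagonist of bone morphogenetic proteins, *Chat*, which makes acetylcholine, and *Angptl7*. *Krt15*, a keratin of the hair follicle bulge and basal layer, was at 13557 CPM in it and 3840 CPM in the other skin epithelium. *Cck* was at 45.7 CPM in this cluster (34.9 to 58.8) and at 0.357 CPM in the other 6495 epithelial cells, 128-fold apart (61.0 to 310). A *Cck* UMI was present in 5.90% of its cells (4.27 to 7.92) at a median depth of 1558 UMIs, and in 0.108% of the other epithelial cells. Only 6 skin cells held 3 or more *Cck* UMIs, and 5 of them were in it. None of the 53 cells had a UMI of any of the 10 Merkel cell genes, such as *Atoh1*, *Krt20* and *Piezo2*. Over all 8899 skin cells these 3 had 0, 3 and 22 UMIs, and the most frequent of the 10, *Cplx2*, had 62. Few were thus to be expected in 53 cells, and nothing is read from their absence. At 45.7 CPM the skin cluster was above the lowest PG cluster of SEB-like cells, at 36.4 CPM with an overlapping interval, and below every other epithelial PG cluster described here.

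Contractile-gated cells stood out among the non-epithelial cells of both tissues, although they were few. In PG, 29 of them held 25 *Cck* UMIs at 543 CPM (352 to 802). The UMIs lay in 6 cells, with 13, 6, 3, 1, 1 and 1. In skin, 24 of them held 3 UMIs at 55.5 CPM (11.5 to 162), in 2 cells. *Cck* in the PG contractile cells was at 189% of its free RNA level, and the 10 other epithelial genes were between 0% and 56.1% of theirs. The 6 cells held 0 UMIs of *Krt14* and of *Scd1*, which only 1 and 3 of the other 23 cells held. *Dbi* was found in 4 of the 6 and in 14 of the 23. Each of the 6 held *Rgs5*, a pericyte gene, as did 15 of the 23. Its level was 2922 CPM in the 6 and 4514 CPM in the 23. The smooth muscle gene *Myh11* was found in 2 of the 6 and in 14 of the 23. As 1 cell carried 13 of the 25 UMIs, the class level rests on very few cells.

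Over single PG epithelial cells, *Cck* went most closely with *S100a10*, *Lmo1*, *Cyp2f2* and *Adh1*. Among 3691 genes with UMIs in at least 10% of these cells, Pearson's r with *Cck*, computed across 3666 cells of 1 library on log2(1 + UMIs per 10000), had a median of 0.0193. It was highest for *S100a10* (0.429), an annexin partner, *Lmo1* (0.428), a transcriptional cofactor, *Cyp2f2* (0.418), a cytochrome P450, and *Adh1* (0.416), an alcohol and retinol dehydrogenase. *Sparc* (0.406), a matrix protein, *Aldh3a1* (0.397) and *Adh7* (0.380), which oxidize aldehydes and alcohols, *Gsta3* (0.378), a glutathione transferase, *Psph* (0.364), the last enzyme of serine synthesis, and *Ftl1* (0.364), the ferritin light chain, completed the first 10. All 10 were positive within basal-, SEB- and suprabasal-gated cells as well, between 0.0622 and 0.493. Within SEB-gated cells alone, 4 of them were among the first 10, which *Tmsb4x* (0.557) led, and *Adh1* was at 0.127. *Cck* itself had an r of -0.0384 with the depth of the cell.

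After thinning, *Lmo1* was at 635 CPM in epithelial cells with a *Cck* UMI and 339 CPM in those without, and *Aldh3a1* at 395 and 170 CPM. *Cyp2f2* was higher in SEB-gated (1178 CPM) than in basal-gated cells (594 CPM), and *Lmo1* the reverse (224 and 696 CPM). Of the epithelial classes, both were lowest in suprabasal-gated cells (65.6 and 125 CPM). At the other end stood *Fabp5* (-0.480), a fatty acid binding protein, *Dmkn* (-0.475), *Anxa1* (-0.456), *Krt17* (-0.448) and *Sprr1a* (-0.434), which builds the cornified envelope. *Dmkn* and *Krt17* are themselves markers of the suprabasal class. In suprabasal-gated cells these genes ranged from 2451 to 7972 CPM. *Fabp5* was lowest of the 5 within SEB-gated cells too (-0.531), whereas *Anxa1* and *Krt17* were near 0 there (-0.0178 and -0.0104). *Dbi* (0.00317), *Krt5* (0.0541) and *Krt14* (-0.0291) had values near 0, although *Cck* differed between their quintiles.

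**Figure D5:**
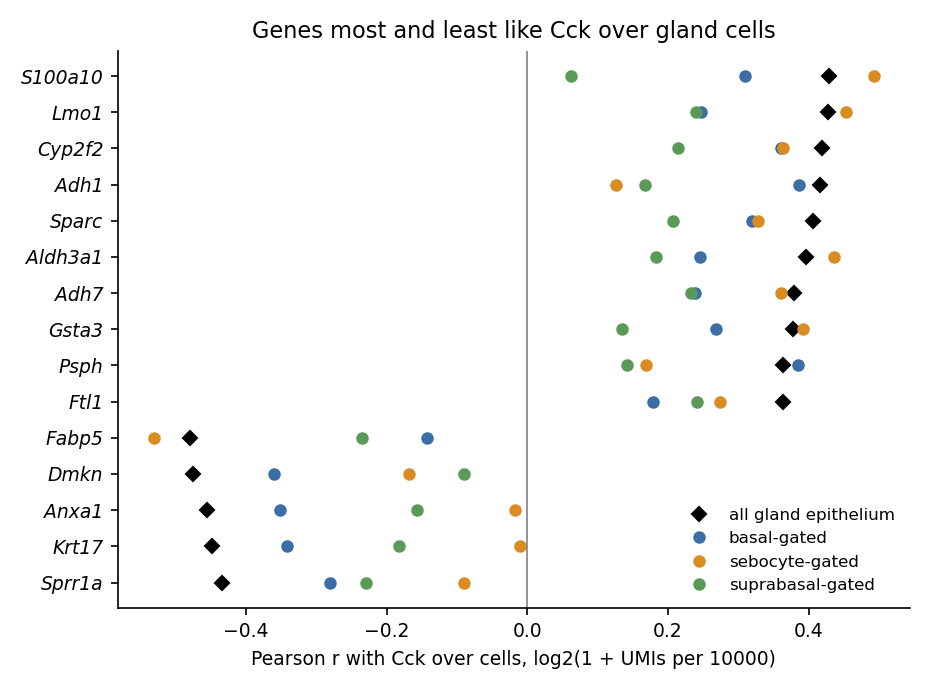
Pearson's r with *Cck* across single PG cells (horizontal axis, from log2 of 1 + UMIs per 10000) for the 10 highest and 5 lowest genes over all PG epithelium (black diamonds) and within each gated class (coloured circles). The first 10 genes lie right of 0 in every class, between 0.0622 and 0.493, and the last 5 lie left of 0.

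Over the 24 PG clusters with at least 50 cells, of all lineages, the genes most like *Cck* by log2(CPM + 1) included *Ptprs* (r of 0.903), a receptor phosphatase, *Phgdh* (0.894), the first enzyme of serine synthesis, *Npm1* (0.892) and *Npm3* (0.879), nucleolar chaperones, *Moxd1* (0.891), *Cbr2* (0.888), a carbonyl reductase, and *Set* (0.886). *Lmo1* (0.879) and *Gsta3* (0.877) were the only 2 genes among the first 10 by both measures. The serine enzymes *Psph* and *Phgdh* thus appeared once in each.

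The skin cluster with *Cck* was compared for the same genes. Of the 10 genes that went with *Cck* over PG cells, 7 reached 10 CPM in skin epithelium, and 3 of these, *Lmo1*, *Sparc* and *Ftl1*, were at least 2-fold higher in the *Cck* cluster than in the other skin epithelium and 0 lower, with 10.4% of all genes higher and 10.9% lower. *Lmo1* was at 363 against 95.4 CPM and *Sparc* at 202 against 58.8 CPM. Of the genes most like *Cck* over PG clusters, *Moxd1* was also higher there, at 128 against 36.0 CPM. *Phgdh*, of the same genes, went the other way, at 25.1 against 67.7 CPM. *Cyp2f2*, *Adh1* and *Gsta3* were near absent from skin epithelium, at 0.548, 2.53 and 2.32 CPM, and *Aldh3a1* was at 29.7 CPM in the cluster against 39.1.

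The receptors of the hormone were not detected. *Cckar* and *Cckbr* had 0 UMIs in the 4699 PG and 8899 skin cells, and *Gast*, the related hormone gastrin, had 0 in PG and 8 UMIs in 5 cells in skin. In PG epithelium 0 UMIs allow up to 0.224 CPM.

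Genes that turn prohormones into peptides were uneven. Of 20 such genes, 14 reached 10 CPM in PG or skin epithelium. Of these 14, 4 were at least 2-fold higher in PG (*Pcsk4*, *Cpe*, *Tpst1* and *Spcs1*) and 2 at least 2-fold lower (*Pam* and *Sec11c*), with a median log2 ratio of 0.20 against -0.07 over all genes, of which 15.3% were higher and 17.9% lower. *Cpe*, the carboxypeptidase, was at 540 CPM in PG and 30.8 CPM in skin epithelium. Yet among the epithelial classes of PG, *Cpe* was highest in suprabasal-gated cells (1647 CPM), where *Cck* was lowest of these classes. It was at 390 CPM in basal-gated and 80.6 CPM in SEB-gated cells, and its r with *Cck* over PG epithelial cells was -0.340. Contractile-gated PG cells held 53 *Cpe* UMIs, at 1152 CPM. The convertase *Pcsk1* had 34 UMIs in PG epithelium, at 2.54 CPM, and *Pcsk2* had 0. The general convertase *Furin* was at 100 CPM in basal-gated and 41.2 CPM in SEB-gated cells. *Pam*, which makes the active amide, was at 11.6 CPM in PG epithelium and 156 CPM in PG fibroblast-gated cells, and *Tpst1* and *Tpst2* were at 18.6 and 12.8 CPM in PG epithelium. Between basal- and SEB-gated PG cells, 5 of the 14 measured genes (*Furin*, *Cpe*, *Cpd*, *Tpst1* and *Ctsl*) were at least 2-fold higher in basal-gated cells and 0 lower, with 13.7% of all genes higher and 6.63% lower. The median log2 ratio of the list was 0.70, against 0.14 over all genes.

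Granins, the cargo proteins of hormone granules, were at or near 0, while exocytosis genes were uneven. The granins *Chga* and *Scg2* had 0 UMIs in both tissues, and *Chgb* had 2 UMIs in PG epithelium. The vesicle fusion gene *Snap25* had 0 UMIs in both tissues, and *Cadps* had 0 and *Syp* 4 UMIs in PG epithelium. Of 17 granule and exocytosis genes 7 reached 10 CPM in either epithelium, with 0 at least 2-fold higher and 2 (*Stx3* and *Rab27a*) at least 2-fold lower in PG. Of all genes 15.3% were higher and 17.9% lower, and the median log2 ratio of the list was -0.42 against -0.07. *Vamp8*, a vesicle fusion protein of many gland cells, was at 348 CPM in PG and 224 CPM in skin epithelium. *Rab3d*, *Vamp2* and *Rab27b* were at 44.4, 25.3 and 15.5 CPM in PG epithelium. None of the 10 transcription factors of enteroendocrine cells reached 10 CPM in either epithelium. *Neurog3*, *Neurod1*, *Insm1*, *Pax4*, *Rfx6* and *Nkx2-2* had 0 UMIs in both tissues, and *Isl1* had 89 in PG cells, with 87.8 CPM in fibroblast-gated cells. Of the 10 Merkel cell genes, the simple keratins *Krt8* (85.1 against 1.89 CPM) and *Krt18* (10 against 1.73 CPM) were the 2 that reached 10 CPM, and both were higher in PG than in skin epithelium, with *Krt8* highest in suprabasal-gated cells at 221 CPM.

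Other peptide hormones were mostly low. Of 20, 5 reached 10 CPM in either epithelium, and 4 of these (*Sct*, *Pyy*, *Adm* and *Pthlh*) were at least 2-fold lower in PG and 0 higher, beside 17.9% and 15.3% of all genes. Their median log2 ratio was -3.03, against -0.07 over all genes. *Sct*, secretin, was at 0.971 CPM in PG and 15.1 CPM in skin epithelium, and *Pyy* at 0.149 and 14.9 CPM. *Edn1*, endothelin, was at 30.4 and 31.3 CPM. Of 12 nutrient and fatty acid sensors, none reached 10 CPM over either epithelium. The long-chain fatty acid receptor *Ffar4* was at 14.9 CPM in SEB-gated and 1.89 CPM in basal-gated PG cells, and had 1 UMI in skin epithelium. Of the basal genes, *Dst* (0.257), *Krt15* (0.252) and *Itga6* (0.222) had the highest r with *Cck* over PG cells. *Itgb4* (0.121), *Trp63* (0.0907), *Col17a1* (0.0689) and *Krt5* (0.0541) were lower, and *Krt14* was negative (-0.0291). *Cidea* of the late SEB list had an r of -0.0833. In the 3 lists that mark these cell states, 3 of 3 late SEB genes with at least 10 CPM were at least 2-fold higher in PG than in skin epithelium. At least 2-fold lower were 4 of 8 basal and 2 of 7 cycling genes, and none of these measured genes went the other way. Of all genes, 15.3% were higher and 17.9% lower. The late SEB genes under 10 CPM were mixed. *Far2* (0.374 against 3.03 CPM) and *Awat1* (0 against 0.421) were lower in PG. *Dgat2l6* (6.50 against 0.0842) and *Plin5* (2.84 against 0) were higher, and *Elovl3* was at 1.72 against 1.81. SEB-gated cells were 957 of 3666 epithelial cells in PG and 53 of 7190 in skin, where 885 were hair follicle matrix-gated. Values of PG over skin epithelium therefore also carry this mix of classes, and its part was not tested. Within PG, 7 of 8 basal and 7 of 7 cycling genes were at least 2-fold higher in basal- than in SEB-gated cells. The 3 of 3 late SEB genes with at least 10 CPM were at least 2-fold lower, beside 13.7% of all genes higher and 6.63% lower. The basal and most late SEB genes are also gate markers, so this follows from the gate.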

How the data were processed

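Cells of back skin and PG, each pooled over the same 3 mice, were captured with a droplet-based 3′ kit. Per the file headers, Cell Ranger 4 wrote the deposited UMI counts for every barcode without normalization, and the labels name mm10. The barcode lists held 6794880 (skin) and 737280 (PG) entries, lengths known from different kit versions, while the labels name 1 kit. The libraries held 37675226 and 26288071 UMIs. Counts were analysed in Python 3.11.15 with numpy 2.4.6, scipy 1.17.1, pandas 2.3.3, scikit-learn 1.9.0, leidenalg 0.10.2 and igraph 0.11.9, with figures in matplotlib 3.10.9.

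Cells took the class with the largest marker share among classes with at least 2 detected markers, and were mixed where another lineage held at least 50% of that share (128 in PG, 257 in skin). This rule was set after clusters had been seen. Clusters used 2000 variable genes, 30 components, 15 neighbours and resolution 1, and a cluster name needed 3 markers, each in 10% of its cells. Doublets were kept and removed in an alternative (177 PG and 634 skin cells). UMIs were summed per class and scaled to 1000000, with exact Poisson intervals for levels, and exact binomial (Clopper-Pearson) intervals for shares and ratios. A count of 0 was given the limit of 3 counts. Cells are not replicates, so no test was made. The members and lists were chosen with earlier results of these data known. Genes named are *Cck*, the lists, *Dbi*, *Krt5*, *Krt14*, the 10 highest and 5 lowest by r over cells and the 10 highest over clusters, of which 1 is not reported here. Tertiles and the contractile cells were looked at after their values were seen. On simulated data, the ranking by r recovered 100% of 10 tied genes among 3500, and 95.9% of 1000 intervals held the true ratio. The simulated counts were Poisson, as the intervals assume, and the cells of the ranking had no classes. Neither check therefore covers the spread between real cells or a mix of classes.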

Additional observations from a re-analysis of the deposited data

Results flagged for a closer look

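The direction of *Cck* along *Dbi* differed between 2 classes of the same PG library. The log2 ratio of highest over lowest *Dbi* quintile was 0.93 among basal-gated cells and -2.79 among SEB-gated cells. Along *Krt5* and *Krt14* it was -0.53 among basal-gated and 1.22 among SEB-gated cells. The intervals of the classes do not overlap in either case, but they cover counting error only, and the difference between classes was not tested because each class comes from 1 library.

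PG barcodes with more than 10% mitochondrial UMIs, which entered no comparison, also held *Cck*. There were 662 of them, 240 with a *Cck* UMI, and their level was 449 CPM (418 to 482), against 11 CPM (2.99 to 28.1) in the 232 such barcodes of skin.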

How the results depend on the processing

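Of 52 levels and ratios under alternatives fixed at the start, 34 stayed within the interval of the value reported, 18 left it and 0 ratios changed sign. In SEB-gated PG cells *Cck* was 803 CPM with at most 5% mitochondrial UMIs, 731 with an upper limit on UMIs, 616 when a class needed 1 more marker, 733 with classes from clusters, 751 with 10% free RNA subtracted and 1109 when mitochondrial, ribosomal protein and *Dbi* UMIs were left out of the scaling. In basal and suprabasal cells together it was 940 with free RNA subtracted and 1350 with that scaling. The log2 ratio of SEB-gated over these cells was -0.14 with at most 5% mitochondrial UMIs, -0.53 with 1 more marker and -0.24 with classes from clusters. PG over skin epithelium was 9.47 with at least 1000 genes and 2000 UMIs. The skin cluster holding most *Cck* cells had a median of 1558 UMIs. Highest over lowest keratin quintile was -0.34 with at most 5% mitochondrial UMIs and -0.27 with the other scaling, and -0.07 (-0.25 to 0.12) after thinning, where the interval includes 0. The same ratio for *Dbi* was -0.84 with the higher lower limits, -0.31 with at most 5% mitochondrial UMIs, -0.62 with the other scaling and -0.36 with tertiles. The causes of these shifts were not tested. The middle quintile was the highest in both rankings in the 5 settings in which all quintiles were computed. Of the first 10 genes by r, 9 were kept with Spearman's rho, 8 after thinning, 10 without doublets and 4 in SEB-gated cells alone, where *Tmsb4x* (0.557) led.

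Alternatives chosen after seeing the data gave 12 further values for the quintiles within a class, of which 4, all after thinning, left the interval reported and 0 changed sign. After thinning the *Dbi* ratio was 0.79 in basal-gated and -2.19 in SEB-gated cells, and the keratin ratio -0.29 and 0.75. No paired analysis was possible because each tissue has 1 library, and for the same reason no replicate could be left out. Levels of a few UMIs, as in skin and contractile cells, are limited by depth.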

Other observations

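PG clusters that their markers placed outside the epithelium differed in *Cck*. Cluster 18, named fibroblast-like and led by *Cfd*, *Car3* and *Cxcl13*, was at 564 CPM with *Cck* in 66.7% of 72 cells. Of its cells, 44.4% were mixed by the gate and 83.3% were among the highest doublet scores. Its level was 619 CPM without the cells of high doublet score, which left few of its cells, and 631 CPM over its fibroblast-gated cells. The other fibroblast-like clusters were lower without the cells of high doublet score. Cluster 8 went from 138 to 25.9 CPM, cluster 23 from 153 to 16.6, cluster 12 from 55.2 to 17.4 and cluster 5 from 62.5 to 42.6. The part of doublets in these levels was not tested. Cluster 21, immune-like and led by immunoglobulin genes, was at 412 CPM over 66 cells and at 39.1 CPM over those of its cells that were immune-gated. The 27 cells of immune-like cluster 26, led by *Mrc1* and *Ccl8*, held 0 *Cck* UMIs, which allows a share of up to 11.1%.

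Skin cluster 34, fibroblast-like and led by *Rspo4*, *Corin* and *Alx4*, held 5 *Cck* UMIs, all in 1 of its 28 cells.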
